A study of Mus musculus with 16 samples.

Results

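The transcription factor p53 (gene Trp53) and 33 of its established target genes were followed in whole mouse kidneys with loss of the histone methyltransferase Ezh2 in nephron progenitors, alone or with loss of its relative Ezh1. Members were all non-control probes on the array whose RefSeq accession belongs to one of these 34 genes, which gave 52 of 56605 probes and 34 of 22911 named genes. Gene expression was measured by 2-colour microarray in C57BL/6 mouse embryos at embryonic day 17.5, with 4 arrays for each of 4 genotypes. In the double knockout, Ezh2 was deleted conditionally in Six2-positive nephron progenitors and both germline alleles of Ezh1 were lost. The Ezh1-het group carried the same Ezh2 deletion with 1 Ezh1 allele lost, the Ezh2-KO group carried it with wild-type Ezh1, and the control group was wild type. The Ezh2 deletion is limited to Six2-positive cells and their descendants, whereas the loss of Ezh1 affects every cell of the embryo, and no group with loss of Ezh1 alone was analysed here. Since whole kidneys were used, fewer cells of a type and less RNA per cell cannot be told apart. The labels call the arrays biological replicates. Control titles read "Kidney Pair" and knockout titles read "Sample", and the labels do not say further whether any kidneys were pooled.

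Ezh2 and Ezh1 are alternative catalytic subunits of Polycomb repressive complex 2, which methylates lysine 27 of histone H3 and keeps genes silent. p53 is held at a low level by the ubiquitin ligase Mdm2, and when it is stabilised it turns on genes that stop the cell cycle, trigger cell death, repair DNA and adjust metabolism. One route to stabilisation runs through p19Arf, a product of the Polycomb-silenced locus Cdkn2a that binds Mdm2. In the embryonic kidney, excess p53 activity is known from mouse mutants of Mdm2 and Mdm4 to deplete nephron progenitors.

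Every array carried the sample in the dye Cy5 and RNA of control 1 in Cy3, so each value below is a log2 ratio of sample over control 1, and a group difference is a difference of mean log2 ratios. The array of control 1 compared that RNA with itself, and its non-zero values (Trp53 at 0.34) come from dye and spot differences rather than from RNA. A dye difference common to all arrays cancels between groups, and with no dye swaps it cannot be measured apart. The brightest of a gene's probes stood for the gene, and 15646 genes were tested in one limma fit with Benjamini-Hochberg adjustment, with a threshold of 0.05. All 34 members could be tested, 30 of them on a probe well above background on 16 of 16 arrays. The genotype labels were borne out by their target: Ezh1 lay at -4.44, -4.59, -4.57 and -4.62 in double knockouts 1 to 4, at -1.38, -1.09, -1.17 and -0.88 in the Ezh1-het arrays, at 0.37, 0.28, -0.30 and -0.17 in the Ezh2-KO arrays and at 0.05, -0.31, 0.22 and -0.28 in controls. One Ezh2 probe (A_51_P248067) was lower than in controls by log2 differences of -3.19 in double knockouts, -3.53 in Ezh1-het and -3.41 in Ezh2-KO kidneys, while the brightest Ezh2 probe, whose place relative to the deleted part is not known here, passed no threshold against control (-0.22, -0.34 and -0.27). Markers of nephron progenitors (8 of 8), podocytes (8 of 8) and proximal tubule (9 of 9) were measurable. The arrays lie on 2 slides, with replicates 1 and 2 of every genotype on slide 1 and replicates 3 and 4 on slide 2. Between 53.1% and 63.4% of probes per array were well above background in Cy5, lowest on control 2, whose Cy5 signal was also the dimmest (75th percentile 5.21 times the background there and up to 16.6 times on other arrays).

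In double knockout kidneys 9 of the 34 genes were higher than in controls and none was lower. Of all genes tested, 3.71% were higher and 0.914% lower in the same comparison. The 34 genes were chosen with earlier results of these data known. The 9 were Pmaip1, Ccng1, Zmat3, Cdkn1a, Eda2r, Ephx1, Tnfrsf10b, Bbc3 and Aen, with log2 differences from 2.27 down to 0.38. They cover death signalling, cell-cycle arrest and detoxification, and the median over all 34 members was 0.25, against 0.0063 over all genes tested. In Ezh1-het kidneys 8 members were higher and none was lower, against 5.91% and 1.9% of all genes. All 8 were among the 9, and Bbc3 was the one not called. In Ezh2-KO kidneys no member passed the limma test, against 2.4% of all genes higher and 0.677% lower, and 7 members had an unadjusted p under 0.05, a share near the 21.3% of all genes that did. Arrays of the double knockout lay wholly above those of the control for 11 members and wholly below for none, against 6.35% and 2.98% of all genes. The same counts were 10 and 1 in Ezh1-het (12.6% and 5.22% of all genes) and 2 and 1 in Ezh2-KO kidneys (7.91% and 3.31%). The level of Trp53 itself passed no test in any genotype.

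**Figure D1:**
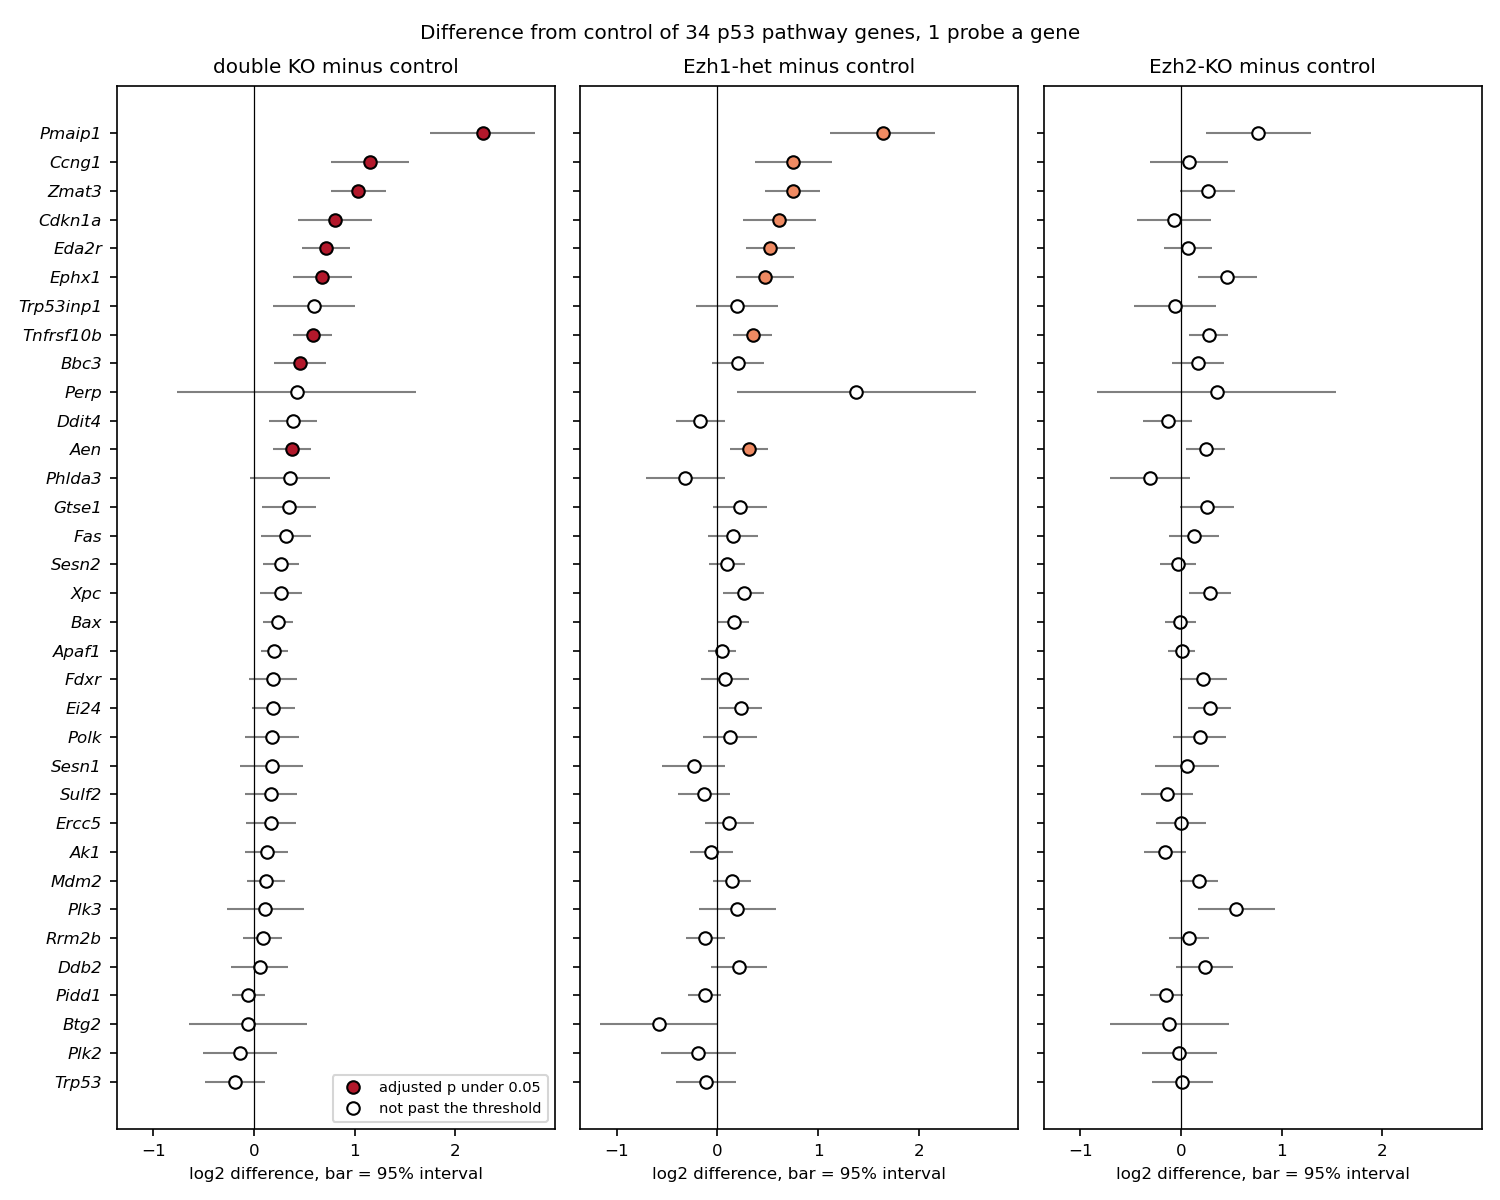
Log2 difference from control (x axis) of each of the 34 genes (y axis, ordered by the double knockout), in double knockout, Ezh1-het and Ezh2-KO kidneys from left to right. Points are limma estimates over 4 arrays a group, bars are 95% intervals, and filled points passed an adjusted p of 0.05: 9 genes in the double knockout, 8 in Ezh1-het and 0 in Ezh2-KO.

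Trp53 mRNA read -0.10, 0.74, 0.12 and 0.01 in double knockouts 1 to 4, 0.09, 0.38, 0.34 and 0.27 in Ezh1-het, 0.48, 0.47, 0.45 and 0.16 in Ezh2-KO, and 0.34, 0.42, 0.31 and 0.45 in controls. Double knockout 2 was above every control and the other double knockouts were below all of them. The difference from control was -0.19 (SE 0.14, limma adjusted p 0.561) in the double knockout, with a 95% interval of -0.49 to 0.11, and -0.11 in Ezh1-het and 0.01 in Ezh2-KO kidneys.

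Mdm2, the ligase that degrades p53 and is itself one of its best-known targets, read 0.15, -0.11, 0.16 and 0.27 in double knockouts, 0.11, 0.15, 0.13 and 0.19 in Ezh1-het, 0.24, 0.17, 0.08 and 0.22 in Ezh2-KO, and 0.10, -0.16, 0.16 and -0.09 in controls. The groups overlapped. Its difference from control was 0.12 in the double knockout (95% interval -0.07 to 0.31, adjusted p 0.551), 0.14 in Ezh1-het and 0.18 in Ezh2-KO kidneys. A second Mdm2 probe gave -0.03 in the double knockout, -0.19 in Ezh1-het and -0.36 in Ezh2-KO kidneys (adjusted p 0.0712 over probes for the last), so the probes differed in sign in each genotype and neither passed the test.

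Pmaip1 encodes Noxa, a BH3-only protein that neutralises the survival factor Mcl1, and showed the highest difference of all members. It read 2.51, 1.62, 2.38 and 1.69 in double knockouts 1 to 4, 1.66, 1.12, 1.54 and 1.36 in Ezh1-het, -0.05, 0.34, 0.86 and 1.04 in Ezh2-KO, and -0.06, -0.44, -0.51 and 0.12 in controls. Every double knockout and Ezh1-het array was above every Ezh2-KO and control array. The log2 difference from control was 2.27 (SE 0.25, limma adjusted p 3.92e-05) in the double knockout, a 4.83-fold higher level, and 1.64 (adjusted p 0.00115) in Ezh1-het kidneys. In Ezh2-KO kidneys it was 0.77 (adjusted p 0.0939), with the slide 2 arrays (replicates 3 and 4) higher than the slide 1 arrays. Within slide 1 alone the double knockout differed from control by 2.31, and within slide 2 by 2.23. The probe was not well above background on 1 of the 4 control arrays.

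Bbc3 encodes Puma, a BH3-only protein that binds all Bcl2-type survival factors. Its values were 0.11, -0.00097, 0.26 and 0.16 in double knockouts, -0.43, 0.00049, -0.21 and 0.12 in Ezh1-het, -0.04, -0.11, -0.41 and -0.09 in Ezh2-KO, and -0.21, -0.49, -0.16 and -0.47 in controls. All double knockouts lay above all controls, while the Ezh1-het arrays spread over both ranges. The difference was 0.46 (SE 0.12, adjusted p 0.0374) in the double knockout and 0.20 (adjusted p 0.310) in Ezh1-het kidneys. The double knockout call was lost when double knockout 1, 3 or 4 or control 1, 2 or 4 was left out, with differences of 0.41 to 0.52 and adjusted p of 0.0255 to 0.129 over the 8 fits. Within the slides the difference was 0.40 and 0.52.

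Bax, the pore-forming protein that BH3-only proteins set free, depended on the probe. The brightest probe read 0.006, -0.14, 0.11 and 0.003 in double knockouts, -0.09, -0.01, -0.19 and -0.05 in Ezh1-het, -0.36, -0.27, -0.17 and -0.22 in Ezh2-KO, and -0.22, -0.30, -0.17 and -0.29 in controls. The double knockout arrays did not overlap with the controls, yet the difference of 0.24 missed the threshold (adjusted p 0.0741). The second Bax probe (A_51_P254541) read 0.29, 0.06, 0.32 and 0.32 in double knockouts, 0.12, 0.25, 0.03 and 0.34 in Ezh1-het, -0.11, -0.11, 0.22 and 0.15 in Ezh2-KO, and -0.12, -0.55, -0.04 and -0.16 in controls. In a fit over 34732 probes this probe was higher by 0.47 in double knockout (adjusted p 0.0356) and by 0.41 in Ezh1-het kidneys (adjusted p 0.0477). Apaf1, the scaffold of the apoptosome, also had double knockout arrays that all lay above the controls, with a difference of 0.20 (adjusted p 0.0895), but its second probe gave -0.13.

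In the group of death receptors and related proteins, Eda2r (the ectodysplasin A2 receptor) read 0.88, 0.50, 1.04 and 0.57 in double knockouts, 0.62, 0.62, 0.47 and 0.51 in Ezh1-het, 0.16, 0.08, -0.07 and 0.23 in Ezh2-KO, and 0.14, -0.09, 0.16 and -0.09 in controls. The double knockout and Ezh1-het arrays all lay above the Ezh2-KO and control arrays. It differed from control by 0.72 (SE 0.11, adjusted p 0.00107) in the double knockout and by 0.52 (adjusted p 0.0123) in Ezh1-het kidneys. Within the slides the double knockout difference was 0.66 on slide 1 and 0.77 on slide 2. A second Eda2r probe was higher by 0.47 in the double knockout (adjusted p 0.0408 over probes). That probe was well above background on 3 double knockout arrays, 1 Ezh1-het array and no Ezh2-KO or control array. It passed the filter only through the groups where it is high, so it is not separate support. Another Eda2r probe was well above background on no array.

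Tnfrsf10b, the mouse receptor of the death ligand TRAIL, read 0.34, 0.39, 0.72 and 0.65 in double knockouts, 0.15, 0.27, 0.28 and 0.47 in Ezh1-het, 0.17, 0.20, 0.30 and 0.19 in Ezh2-KO, and 0.0089, -0.14, 0.02 and -0.13 in controls. Each of the 3 knockout groups lay wholly above the controls. It was higher by 0.58 (SE 0.09, adjusted p 0.00107) in double knockout kidneys, with 0.43 within slide 1 and 0.74 within slide 2, and by 0.35 (adjusted p 0.0330) in Ezh1-het kidneys. In Ezh2-KO kidneys the difference was 0.28 (adjusted p 0.110). The second Tnfrsf10b probe gave 0.18 in the double knockout and -0.02 in Ezh1-het kidneys and passed no threshold. The Ezh1-het call was lost without Ezh1-het 2, 3 or 4 or without control 2 or 4 (adjusted p 0.0325 to 0.115).

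Fas, the receptor of Fas ligand, and Pidd1, an adaptor of the PIDDosome, made up the rest of this group and were not called. Fas was 0.32 higher in double knockouts (adjusted p 0.153), on a probe that was well above background on 1 of 4 control arrays, and Pidd1 differed by -0.05.

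Other members act on survival by separate routes. Zmat3 is an RNA-binding zinc finger protein that controls splicing and mRNA stability. It read 1.00, 0.50, 1.16 and 0.69 in double knockouts, 0.51, 0.50, 0.52 and 0.67 in Ezh1-het, -0.06, 0.08, 0.05 and 0.20 in Ezh2-KO, and -0.10, -0.44, 0.03 and -0.28 in controls. Every array of the double knockout and Ezh1-het groups was above every Ezh2-KO and control array. The difference was 1.04 (SE 0.13, adjusted p 0.000125) in double knockout and 0.75 (adjusted p 0.00285) in Ezh1-het kidneys, and within the slides the double knockout differed by 1.02 on slide 1 and 1.05 on slide 2.

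Aen, an exonuclease that degrades DNA during apoptosis, read 0.14, 0.50, 0.40 and 0.45 in double knockouts, 0.28, 0.43, 0.17 and 0.38 in Ezh1-het, 0.25, 0.11, 0.27 and 0.33 in Ezh2-KO, and -0.02, 0.02, 0.11 and -0.12 in controls. The 3 knockout groups overlapped each other, and only the lowest Ezh2-KO array reached the highest control. The difference was 0.38 (SE 0.09, adjusted p 0.0207) in double knockout kidneys, with 0.32 within slide 1 and 0.43 within slide 2, and 0.32 (adjusted p 0.0416) in Ezh1-het kidneys. Of its 3 probes, 2 passed in the double knockout and 3 in Ezh1-het kidneys in the fit over probes. The Aen call was lost in the double knockout without double knockout 2, 3 or 4 or control 1 or 4 (adjusted p 0.00559 to 0.0704), and in Ezh1-het without Ezh1-het 1, 2 or 4 or control 1, 2 or 4 (adjusted p 0.0389 to 0.127).

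Phlda3, which competes with Akt for membrane lipids, read 0.44, 0.45, 0.61 and 0.40 in double knockouts, -0.60, -0.23, -0.03 and 0.06 in Ezh1-het, 0.03, 0.25, -0.48 and -0.56 in Ezh2-KO, and -0.06, 0.40, 0.34 and -0.22 in controls. The double knockout arrays were close together and above all Ezh1-het and Ezh2-KO arrays, while the other groups were scattered. It differed from control by 0.36 in the double knockout (adjusted p 0.351), and the difference of 0.68 from Ezh1-het did not pass either (adjusted p 0.112). Trp53inp1, a stress protein of autophagy and death, differed by 0.60 in double knockout kidneys without passing the test (adjusted p 0.0989): double knockouts 1 and 3 read 0.95 and 0.88 and double knockouts 2 and 4 read 0.12 and 0.12. Perp, a desmosome-associated membrane protein, ranged from -2.29 on control 3 to 1.53 on Ezh1-het 1, and its difference of 1.38 between Ezh1-het and control was not called (adjusted p 0.138). On control 3 the mean log2 ratio of 7 kidney epithelium markers was -1.49, against -0.23 to -0.08 on the other controls, and that of 9 proximal tubule markers was -2.18, against -0.38 to 0.40, and their part in the Perp value was not tested.

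Cdkn1a encodes p21, the CDK inhibitor through which p53 arrests cells in G1. It read 0.76, 0.60, 1.05 and 0.34 in double knockouts, 0.60, 0.32, 0.57 and 0.50 in Ezh1-het, -0.26, -0.07, -0.44 and 0.02 in Ezh2-KO, and 0.0062, 0.35, -0.41 and -0.43 in controls. All double knockout and Ezh1-het arrays lay above the Ezh2-KO arrays, and control 2 overlapped with the lowest array of each. The difference from control was 0.81 (SE 0.17, limma adjusted p 0.0107) in the double knockout, a 1.75-fold higher level, 0.61 (adjusted p 0.0414) in Ezh1-het and -0.07 in Ezh2-KO kidneys. It was 0.50 within slide 1 and 1.11 within slide 2 for the double knockout, slide 1 being the one that holds control 2. The Ezh1-het call was lost when any Ezh1-het array or control 3 or 4 was left out (adjusted p 0.0127 to 0.101), whereas the double knockout call held in all 8 such fits. A second probe, for another Cdkn1a transcript and well above background on 7 arrays, gave 0.34 in the double knockout (adjusted p 0.114 over probes).

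Ccng1, cyclin G1, guides the phosphatase PP2A to Mdm2. Its values were 1.37, 0.62, 1.42 and 0.66 in double knockouts, 0.88, 0.49, 0.61 and 0.49 in Ezh1-het, -0.38, -0.13, 0.08 and 0.20 in Ezh2-KO, and 0.11, -0.15, -0.21 and -0.30 in controls. The first pair of groups did not overlap with the second pair. It was higher by 1.15 (SE 0.18, adjusted p 0.000967) in double knockout kidneys, a 2.23-fold higher level, with 1.01 within slide 1 and 1.30 within slide 2. In Ezh1-het kidneys the difference was 0.75 (adjusted p 0.0215), and it missed the threshold without Ezh1-het 1 (adjusted p 0.0575). Ccng1 lies on chromosome 11, as do Ezh1 and the members Trp53 and Fdxr, neither of which was called.

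The remaining 4 cell-cycle members were not called. Gtse1, which in human cells moves p53 out of the nucleus, differed by 0.35 between double knockout and control, the antiproliferative factor Btg2 by -0.06 and the polo-like kinases Plk2 and Plk3 by -0.14 and 0.11. Btg2 and Plk3 differed between the Ezh2-KO arrays: Plk3 read 0.69 and 0.53 on Ezh2-KO 1 and 2 and -0.31 and 0.04 on Ezh2-KO 3 and 4, and Btg2 read 0.53 and 0.44 on the first pair and -0.61 and -0.44 on the second. The mean log2 ratio of 24 immediate early and stress genes, which dissection can induce, was 0.40 and 0.33 on Ezh2-KO 1 and 2 and -0.35 and 0.06 on Ezh2-KO 3 and 4, and its part in these values was not tested.

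**Figure D2:**
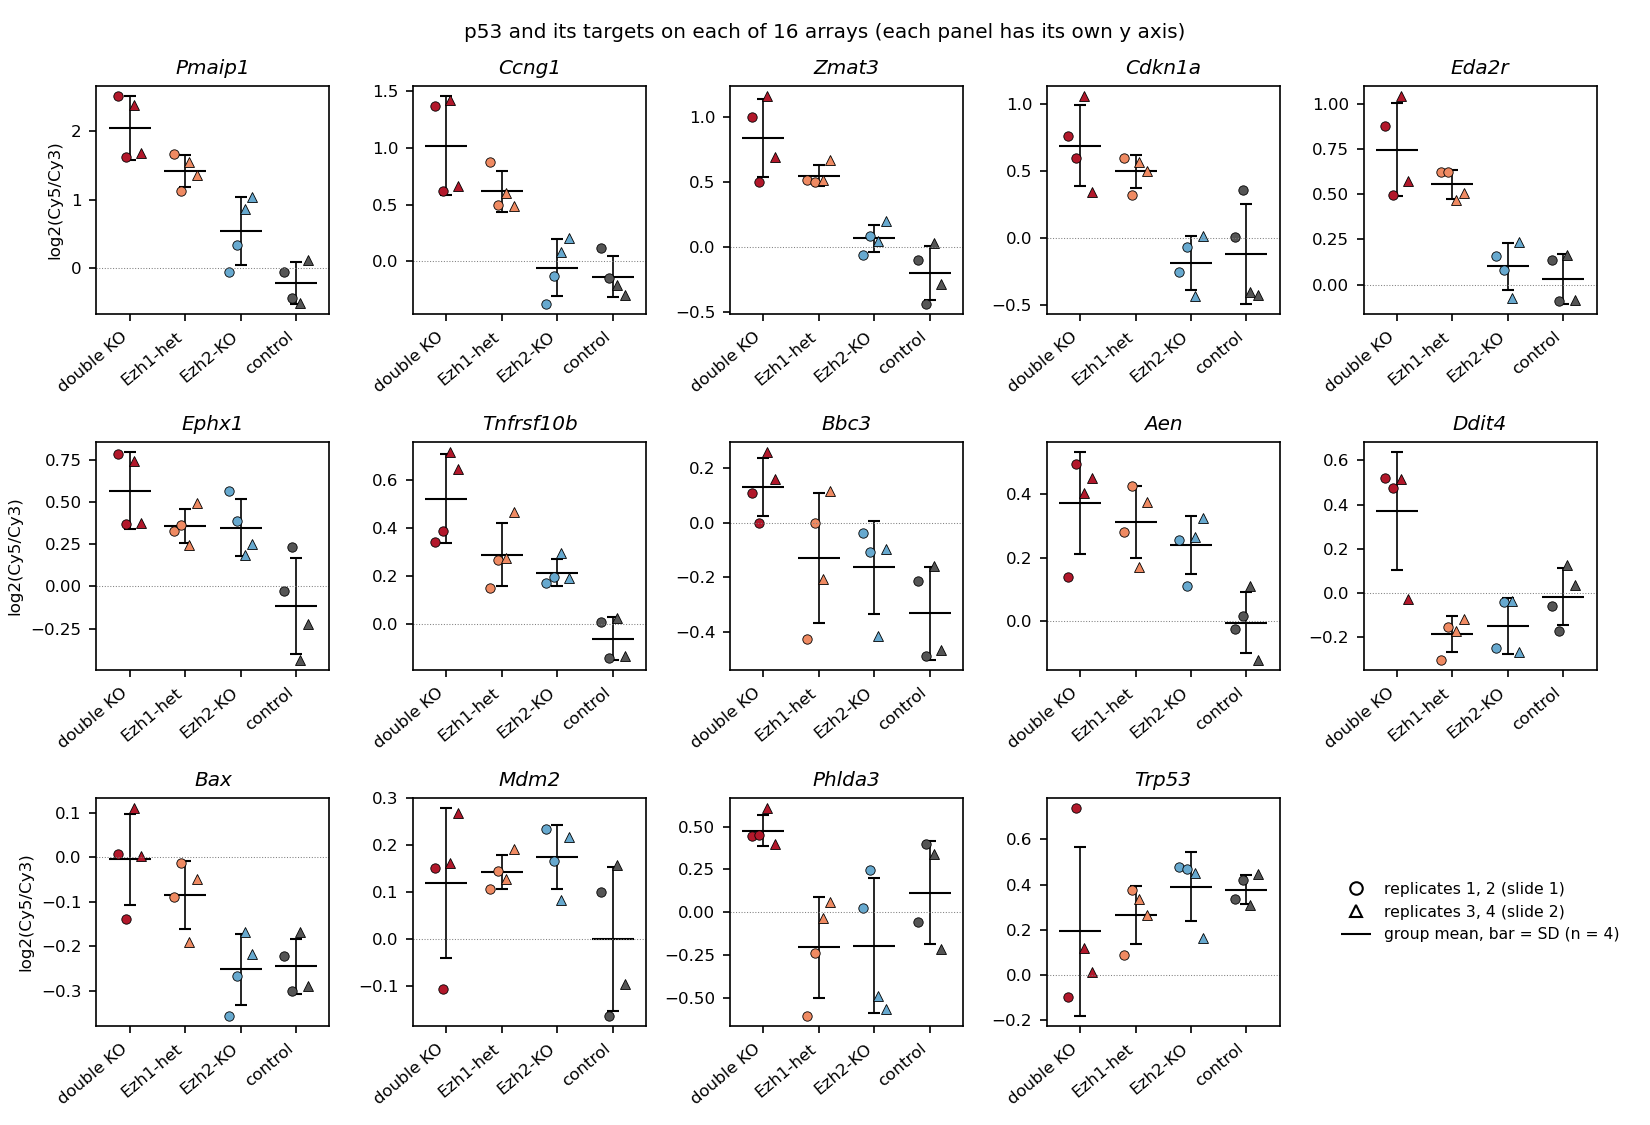
Log2 ratio of Cy5 over Cy3 (y axis, a separate scale in each panel) on each of 16 arrays for Trp53 and 13 targets, with double knockout, Ezh1-het, Ezh2-KO and control from left to right. Circles are slide 1, triangles slide 2, horizontal lines group means and bars SDs (n = 4). For Pmaip1, Ccng1, Zmat3 and Eda2r all double knockout and Ezh1-het arrays lie above all Ezh2-KO and control arrays, while Mdm2 and Trp53 overlap between groups.

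Ephx1, the microsomal epoxide hydrolase, was the one gene called against control among the 7 members of metabolism and matrix. It read 0.79, 0.37, 0.74 and 0.37 in double knockouts, 0.33, 0.36, 0.25 and 0.49 in Ezh1-het, 0.57, 0.39, 0.18 and 0.25 in Ezh2-KO, and -0.03, 0.23, -0.43 and -0.22 in controls. All double knockout and Ezh1-het arrays lay above the controls and overlapped with the Ezh2-KO arrays. The difference was 0.68 (SE 0.14, adjusted p 0.00708) in double knockout, 0.47 (adjusted p 0.0469) in Ezh1-het and 0.46 (adjusted p 0.0753) in Ezh2-KO kidneys. Within slide 1 the double knockout differed from control by 0.48 and within slide 2 by 0.89. The Ezh1-het call was lost in 7 of 8 fits that left out 1 array, all but the one without control 2 (adjusted p 0.0197 to 0.141).

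Ddit4, an inhibitor of mTORC1, read 0.52, 0.48, 0.51 and -0.03 in double knockouts, -0.30, -0.15, -0.17 and -0.12 in Ezh1-het, -0.25, -0.04, -0.04 and -0.27 in Ezh2-KO, and -0.06, -0.18, 0.13 and 0.03 in controls. Double knockouts 1 to 3 stood above every other array, and double knockout 4 lay among the controls. It was higher in double knockouts than in Ezh2-KO by 0.52 (adjusted p 0.0425) and than in Ezh1-het by 0.56 (adjusted p 0.0493), and its difference of 0.39 from control was not called (adjusted p 0.0692). Each of the first 2 calls was lost in 7 of 8 fits that left out 1 array, all but the one without double knockout 4, with adjusted p up to 0.140 and 0.169. The other metabolic members were not called: the sestrins Sesn1 and Sesn2 differed by 0.18 and 0.27 between double knockout and control, ferredoxin reductase Fdxr by 0.19, adenylate kinase Ak1 by 0.13 and the sulfatase Sulf2 by 0.17.

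None of the 5 DNA repair members (Xpc, Ddb2, Polk, Rrm2b and Ercc5) passed the limma test in any comparison. Their differences between double knockout and control ran from 0.06 for Ddb2, a damage sensor of nucleotide excision repair, to 0.27 for its partner Xpc (adjusted p 0.162). The second Xpc probe gave -0.14. The last uncalled death gene, the endoplasmic reticulum protein Ei24, differed by 0.19.

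The steps between the 3 Ezh2-deficient genotypes set the second question, how these genes stood by Ezh1 dose. The comparisons share arrays, so they are not independent. With 0, 1 and 2 Ezh1 alleles lost, mean Pmaip1 was 0.54 ± 0.50, 1.42 ± 0.24 and 2.05 ± 0.46 (SD, n = 4 each). Mean Ccng1 was -0.06 ± 0.25, 0.62 ± 0.18 and 1.02 ± 0.44 over the same steps. Mean Cdkn1a was -0.19 ± 0.20, 0.50 ± 0.12 and 0.69 ± 0.30. For 8 of the 9 genes called between double knockout and control, the group means were ordered control, Ezh2-KO, Ezh1-het, double knockout from low to high, the exception being Cdkn1a, whose control mean of -0.12 was above its Ezh2-KO mean. Choosing the 9 by that call fixed their double knockout means above control in advance. How often other called genes show such an order was not counted.

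A slope was fitted to the number of Ezh1 alleles lost, on the 12 arrays of the genotypes with the Ezh2 deletion. It called 5 members higher per Ezh1 allele lost, against 0.543% of all genes, and none lower, against 0.198%. Since the groups are of equal size, the slope estimate depends only on the double knockout and Ezh2-KO means. The Ezh1-het arrays enter only its error. The slope is therefore the difference between double knockout and Ezh2-KO on a per-allele scale, not a separate result. It does not show where the Ezh1-het group lies between them. The slopes per allele were 0.75 (SE 0.12, limma adjusted p 0.00900) for Pmaip1, 0.54 (adjusted p 0.0166) for Ccng1, 0.44 (adjusted p 0.0182) for Cdkn1a, 0.39 (adjusted p 0.00776) for Zmat3 and 0.32 (adjusted p 0.0215) for Eda2r. The slopes of Ccng1, Cdkn1a and Eda2r lost the call without double knockout 1, double knockout 3 or Ezh2-KO 2 (adjusted p up to 0.0636, 0.0672 and 0.0789), while those of Pmaip1 and Zmat3 kept it in all 12 fits that left out 1 array.

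Between double knockout and Ezh2-KO kidneys, 6 members were higher and none was lower, against 0.639% and 0.275% of all genes, and 15 had arrays wholly above and none wholly below, against 3.09% and 4.47%. These were Pmaip1 (1.50, adjusted p 0.00461), Ccng1 (1.08, adjusted p 0.00627), Cdkn1a (0.88, adjusted p 0.0202), Zmat3 (0.77, adjusted p 0.00580), Eda2r (0.65, adjusted p 0.00921) and Ddit4. The Cdkn1a call was lost without double knockout 1, 2 or 3 or Ezh2-KO 1 or 3 (adjusted p 0.0117 to 0.0777). No member passed limma between Ezh1-het and Ezh2-KO, where 0.0383% of all genes were higher and 0.0192% lower. An unadjusted p under 0.05 was found there for 7 members, against 7.37% of all genes. Of the 34 members, 5 lay wholly above there, against 1.99% of all genes. They were the 5 genes with a called slope, with differences of 0.45 to 0.88. That slope uses the same Ezh2-KO arrays, and the Ezh1-het arrays in its error, so the 2 findings are not separate. No member lay wholly below there (2.56% of all genes). Ddit4 was the one member called between double knockout and Ezh1-het (0.236% of all genes higher, 0.141% lower), where 5 members lay wholly above and 1 wholly below (2.83% and 9.82% of all genes). Tnfrsf10b, Ephx1 and Aen, which were higher than control in double knockout and Ezh1-het kidneys, were called in none of the comparisons between Ezh2-deficient genotypes, where the Tnfrsf10b mean was 0.52 ± 0.19 in double knockout and 0.21 ± 0.06 in Ezh2-KO kidneys (SD, n = 4 each).

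Within the double knockout group, arrays 1 and 3 were both above arrays 2 and 4 for 14 of the 34 members and both below for 3, against 24.9% and 13.4% of all genes. The 14 include Pmaip1, Ccng1, Zmat3, Cdkn1a, Eda2r and Ephx1 of the 9 called genes, and the 3 include Aen. The mean log2 ratio of 9 proximal tubule markers ran the same way, at -1.30 and -1.47 on arrays 1 and 3 and -2.27 and -2.72 on arrays 2 and 4, against 0.03, 0.40, -2.18 and -0.38 on control arrays. Means of 4 erythroid markers were -0.16 and -0.57 on arrays 1 and 3 and -1.39 and -2.88 on arrays 2 and 4, against 0.08, -0.45, 0.43 and -0.31 on controls. All 9 proximal tubule markers had negative differences between double knockout and control and none was called. In Ezh1-het kidneys, where 8 members were higher than in controls, the proximal tubule means lay between -0.33 and 0.23 and the erythroid means between -0.16 and 0.83. The 8 differences were positive within each slide, at 0.25 to 1.64 on slide 1 and 0.28 to 1.65 on slide 2. Since the 8 were called over these same arrays, their sign within each slide was largely fixed in advance. Nephron progenitor markers were lower in double knockouts for 2 of 8 genes (Cited1 and Crym), in Ezh1-het for 3 and in Ezh2-KO for 2. Of all genes, 0.914%, 1.9% and 0.677% were lower there. Differences above 0 were found for 2 of the 8 in double knockouts and for 1 each in Ezh1-het and Ezh2-KO. In Ezh1-het kidneys 6 of 8 podocyte markers were higher, where 5.91% of all genes were. The part of these cell types in the p53 target values was not tested. No member passed the F test of genotype by slide (lowest adjusted p 0.413, for Plk3), which called 0.00639% of all genes.

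**Figure D3:**
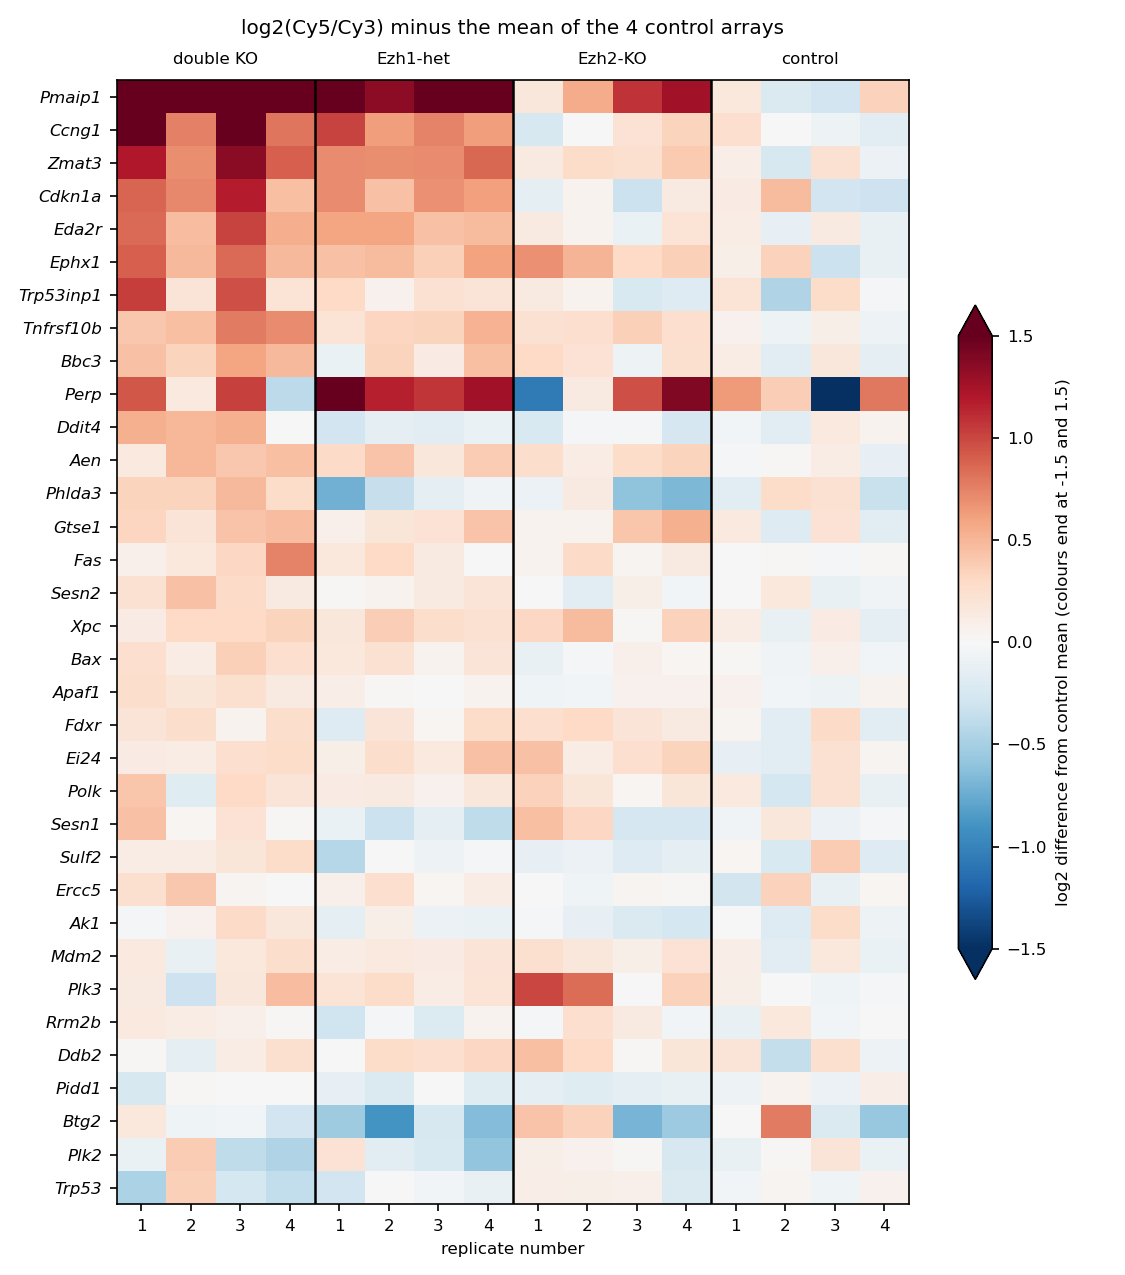
Log2 ratio minus the mean of the 4 control arrays for each of the 34 genes (rows) on each array (columns, by replicate number), with double knockout, Ezh1-het, Ezh2-KO and control from left to right. Red is higher and blue lower, and colours end at 1.5 either way. Pmaip1, Ccng1, Zmat3 and Eda2r are red in the double knockout and Ezh1-het columns, Ccng1 is darker on double knockouts 1 and 3 than on 2 and 4, and Perp is dark blue on control 3.

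Of the 34 genes 15 had several probes on the array, and 5 of these (Mdm2, Btg2, Xpc, Apaf1 and Pidd1) had probes of opposite sign in the double knockout. No gene called in that comparison was among the 5. Of the called genes, however, Pmaip1, Ccng1, Zmat3, Ephx1 and Bbc3 had a single probe, so they could show no such disagreement. Over all probes tested, 2.42% were higher and 0.674% lower in the double knockout, and 4% higher and 2.35% lower in Ezh1-het kidneys.

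**Figure D4:**
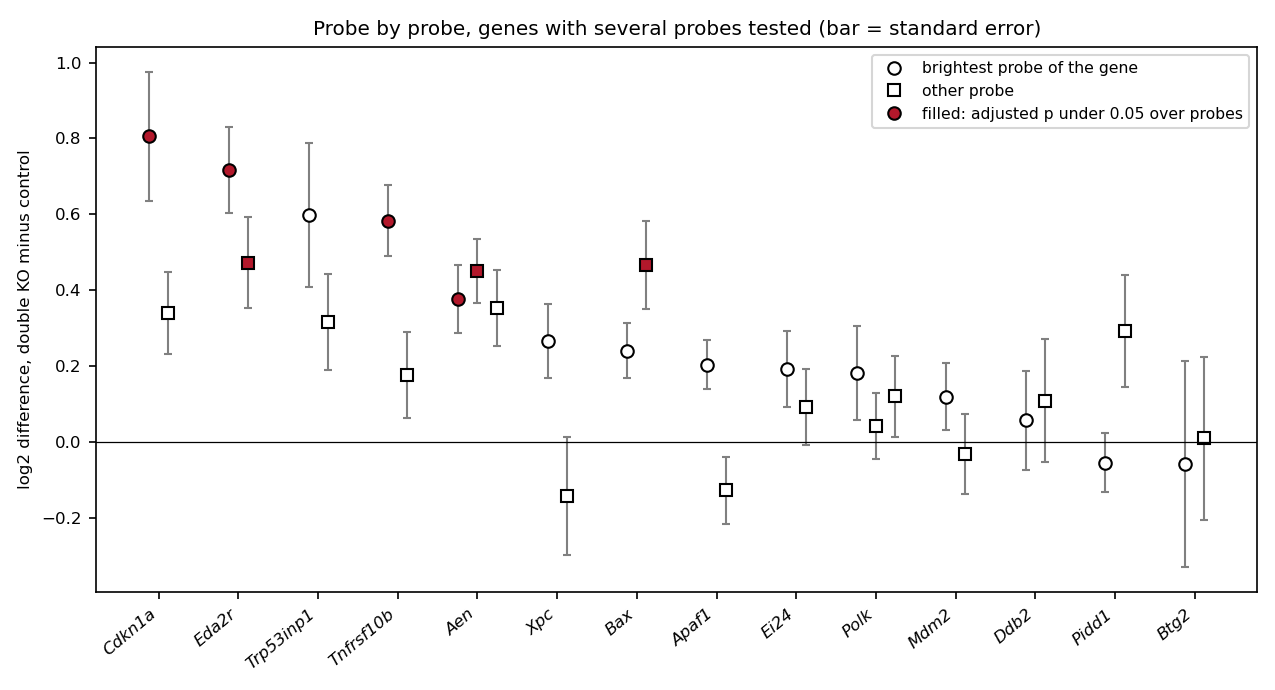
Log2 difference between double knockout and control (y axis) for each tested probe of the 14 members with several tested probes (x axis, ordered by the gene's main probe). Circles are the brightest probe, squares the others, bars standard errors, and filled symbols passed an adjusted p of 0.05 over 34732 probes. The second Bax probe is filled at 0.47 while the brightest is open at 0.24.

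p53 binds DNA at pairs of a 10-letter element, and promoters that hold it are shown for 3 members that were higher in the double knockout and 3 that were not called. RefSeq promoters (GRCm38.p6, 250 bases before to 50 after the start) were in the table for 26 of the 34 members, with 37 starts. The 10-letter p53 consensus element, which reads the same on both strands, was found with no mismatch in 11 of 37 member promoters (29.7%), against 2745 of 32851 promoters in the table (8.36%). One member start, of Cdkn1a, held a pair of elements at most 13 bases apart, as 24 of all promoters did (0.0731%). In the stretches below, written 5′ to 3′ on the gene's strand, capitals mark the element. Cdkn1a, Ccng1 and Aen are the members that were higher.
Cdkn1a, chr17:29090881-29090962 (+): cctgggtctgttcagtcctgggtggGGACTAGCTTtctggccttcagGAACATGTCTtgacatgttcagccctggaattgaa
Ccng1, chr11:40755437-40755496 (-): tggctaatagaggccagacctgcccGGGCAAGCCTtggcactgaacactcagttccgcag
Aen, chr7:78895912-78895971 (+): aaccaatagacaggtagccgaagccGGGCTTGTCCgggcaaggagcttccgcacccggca
Mdm2, chr10:117710910-117710969 (-): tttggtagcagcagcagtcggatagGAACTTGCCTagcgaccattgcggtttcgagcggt
Bax, chr7:45467065-45467124 (-): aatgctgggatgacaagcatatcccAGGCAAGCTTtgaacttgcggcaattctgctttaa
Trp53, chr11:69580259-69580318 (+): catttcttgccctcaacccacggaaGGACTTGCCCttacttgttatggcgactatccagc
Of the 9 genes higher in the double knockout, 6 had a promoter in the table and 3 of them held the element, against 7 of 20 among the genes not called. Bbc3, Eda2r and Ephx1 were higher with no such letters in these windows. A match is a match of letters only, and no match says only that the letters are not in this window.

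Upstream of p53, Cdkn2a stood out among 32 measured regulators. It read 4.51, 3.97, 4.64 and 3.89 in double knockouts, 3.56, 3.46, 3.35 and 3.62 in Ezh1-het, 0.15, 0.61, 2.01 and 2.08 in Ezh2-KO, and -0.03, -0.15, 0.02 and 0.06 in controls. Since none of the 4 control arrays had its probe well above background, it was at least 19.4-fold higher in double knockout (limma adjusted p 9.43e-07) and at least 11.5-fold higher in Ezh1-het kidneys (adjusted p 2.44e-05), and its difference in Ezh2-KO kidneys was not called (adjusted p 0.0520). Whether the probe reads p16Ink4a, p19Arf or both was not examined. One other regulator was higher in the double knockout, Ppp1r13b (0.46, adjusted p 0.0325), which encodes ASPP1, a partner that steers p53 to death genes, and none was lower. In Ezh1-het kidneys 2 of the 32 regulators were higher and 1 lower, where 5.91% and 1.9% of all genes were, and in Ezh2-KO kidneys 1 was higher and 1 lower, where 2.4% and 0.677% were. These counts are near those shares, as are the 2 higher in the double knockout (3.71% of all genes). The lower one in both was Mdm4, the relative of Mdm2 that blocks p53, named after its values were seen: its difference was -0.17 in double knockout (adjusted p 0.644), -0.63 in Ezh1-het (adjusted p 0.0279) and -0.72 in Ezh2-KO kidneys (adjusted p 0.0251). Mdm4 read 0.75 on control 2, against -0.07 to 0.35 on the other controls.

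Of 49 further p53 targets outside the 34, 9 were higher and 1 lower in double knockouts, where 3.71% and 0.914% of all genes were. This list, too, was chosen with earlier results of these data known. The largest differences were in Dglucy, D-glutamate cyclase, at 1.32 (adjusted p 0.000118), Rprm, the G2 arrest gene reprimo, at 1.02 (adjusted p 0.0104), Psrc1, a microtubule protein, at 0.82 (adjusted p 0.00234) and the stress hormone Gdf15 at 0.78 (adjusted p 0.0141). In Ezh1-het kidneys 7 of the 49 were higher (5.91% of all genes) and in Ezh2-KO kidneys 3 (2.4% of all genes), with none lower. The median of this list was 0.07 in double knockouts, against 0.25 for the 34 members. Between double knockout and Ezh2-KO kidneys 1 of the 49 was higher and none lower (0.639% and 0.275% of all genes). There 22 differences were above 0 and 27 below, with a median of -0.01, against 0.18 for the 34 members. Between double knockout and Ezh1-het none was higher and 1 lower (0.236% and 0.141% of all genes).

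Downstream of p21, none of 25 genes that p53 represses through p21 and the DREAM complex (mitotic genes such as Ccnb1, Cdk1 and Plk1) was called lower in any of the 3 knockout groups against control. Since 0.914%, 1.9% and 0.677% of all genes were lower in double knockout, Ezh1-het and Ezh2-KO kidneys, a count of 0 is near the background for a list of this length. In the double knockout 22 of 25 differences were above 0 with a median of 0.21 and none passed the limma test. In Ezh1-het kidneys 2 were higher (5.91% of all genes) and in Ezh2-KO kidneys 1 (2.4% of all genes). Of 7 further CDK inhibitors, 3 were higher in double knockouts: Cdkn2a, Cdkn2b (1.80, adjusted p 0.000125) and Cdkn2c (1.00, adjusted p 1.39e-05), where 3.71% of all genes were. The same number was higher in Ezh1-het and none in Ezh2-KO kidneys. None of 24 immediate early and stress genes passed in the double knockout, while 2 were higher in Ezh1-het and 1 in Ezh2-KO kidneys. These counts are near the shares of all genes (5.91% and 2.4%), but the medians were not. They were 0.39, 0.21 and 0.51 in double knockout, Ezh1-het and Ezh2-KO kidneys, against 0.0063, 0.05 and 0.06 over all genes. In the same order 20, 18 and 23 of the 24 differences were above 0. The part of these genes in the p53 target values was not tested.

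With each array centred on its median in place of loess, the median of all genes moved to 0.38, 0.44 and 0.41 in double knockout, Ezh1-het and Ezh2-KO kidneys, and 25, 21 and 19 members were called higher, against 33.2%, 49.5% and 42.6% of all genes. One member, Rrm2b in Ezh1-het kidneys, was then called lower, on a probe well above background on none of the Ezh1-het arrays. The members' median was 0.70, 0.55 and 0.47 on that scale, which is 0.33, 0.11 and 0.06 above the median of all genes. Without controls 2 and 3 the counts were 8 in the double knockout, 2 in Ezh1-het (Pmaip1 and Zmat3) and 0 in Ezh2-KO kidneys. The share of all genes was not taken for that setting.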

How the data were processed

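Total RNA of whole kidneys was hybridised to 16 Agilent 2-colour arrays. Per the file headers and the submitters' processing notes, Feature Extraction 10.7.3.1 made the deposited spot intensity columns and a deposited log10 ratio column of processed Cy5 over Cy3. The value table deposited by the authors holds the same log10 ratio, rounded, with a median of 0 on every array. Median spot intensities were corrected with normexp (offset 50) and loess in limma 3.58.1 under R 4.3.3, with control spots at weight 0 and outlier spots left out (69 to 343 per array). The files also hold processed spot intensities, which the main fit did not use. No spot was saturated. Symbols came from a RefSeq gene table (GRCm38.p6): 32994 of 56605 probes had 1 symbol, none several and 23611 none. A probe was tested when 4 or more of the 16 arrays had it well above background in Cy5. Groups shared one fit of log2 ratios, two-sided, and the fit was tested on simulated data. Members, roles and other lists were chosen with earlier results of these data known. Values per array are given for 10 preset members and each other member past the threshold in any of 6 comparisons, and differences for up to 4 genes of each other list that were called in the double knockout. The number of arrays limits the precision. Alternatives were other normalizations, filters, blocks, weights and left-out arrays.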

Additional observations from a re-analysis of the deposited data

Results flagged for a closer look

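Within a genotype of 4 arrays, an array was picked out when its gap to the nearest other array exceeded Dixon's 95% critical value. This happened in 6 of 136 sets, and chance gives about 1 in 20. Trp53 was lower on Ezh2-KO 4 (0.163) than on the other Ezh2-KO arrays (0.453 to 0.477). Zmat3 was higher on Ezh1-het 4 (0.667) than on the other Ezh1-het arrays (0.500 to 0.515). Perp was lower on control 3 (-2.29) than on the other controls (-0.12 to 0.30). Ddit4 was lower on double knockout 4 (-0.0289) than on the other double knockouts (0.475 to 0.518). Sulf2 was lower on Ezh1-het 1 (-0.448) than on the other Ezh1-het arrays (-0.0891 to -0.0246). Pidd1 was lower on double knockout 1 (-0.0726) than on the other double knockouts (0.158 to 0.182).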

How the results depend on the processing

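The counts of members past the threshold were 9 for double knockout against control, 8 for Ezh1-het against control, 0 for Ezh2-KO against control, 6 for double knockout against Ezh2-KO, 0 for Ezh1-het against Ezh2-KO, 1 for double knockout against Ezh1-het and 5 per Ezh1 allele lost. With median centring in place of loess the counts against control were 25 in double knockout, 22 in Ezh1-het (21 higher and Rrm2b lower) and 19 in Ezh2-KO kidneys, where 33.2%, 49.5% and 42.6% of all genes were called higher. Shares of all genes were taken only for loess, median centring and the deposited ratio. Counts under the other settings therefore cannot be set against all genes. With array weights they were 14 in double knockout and 3 in Ezh2-KO against control, 12 in double knockout and 5 in Ezh1-het against Ezh2-KO, 9 in double knockout against Ezh1-het and 8 per allele. With only the arrays of the groups compared they were 5 in double knockout and 5 in Ezh1-het against control, 0 in double knockout against Ezh2-KO and 4 in double knockout against Ezh1-het, on fewer samples. On slide 1 alone they were 2, 1 and 1 in double knockout, Ezh1-het and Ezh2-KO against control, 2 and 4 in double knockout and Ezh1-het against Ezh2-KO, and 0 per allele. On slide 2 alone they were 2 in double knockout and 0 in Ezh1-het against control, 0 in double knockout against Ezh2-KO and 1 per allele. Without controls 2 and 3 Ezh1-het against control gave 2. The single call of double knockout against Ezh1-het, Ddit4, gave 0 with median centring, the deposited ratio, no background correction, no filter or a stricter filter on dim probes, slide or replicate number as a block, and either slide alone. Leaving out 1 array at a time gave 7 to 11, 4 to 6, 0 to 2, 4 to 6, 0 to 0, 0 to 1 and 2 to 6, in the order of the first sentence. Where no fewer arrays or genes were used, the cause was not tested. Same-numbered arrays of different genotypes share only a number: the correlation of their deviations from group means was above 0.1 in 8 of 24 pairs (range -0.48 to 0.51), and 5 of 16 arrays matched best with their own number. With the replicate block Ezh1-het against control gave 5 and the slope per allele 3. For genes past the threshold no alternative turned a direction round, 507 values kept their side of the threshold and 163 fell short of it. Differences that were not called could turn: Btg2 in double knockouts (-0.06) was 0.23 on slide 2, and Cdkn1a in Ezh2-KO kidneys (-0.07) was 0.21 on slide 2. The dim Fas and Rrm2b probes, well above background on 12 and 7 of 16 arrays, limit what can be said of these genes.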
